A study of Caenorhabditis elegans with 2 samples.

Results

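The genes of the small subunit of the cytoplasmic ribosome were examined for binding of AHA-1 in whole Caenorhabditis elegans larvae of stage L4. They were chosen by name, as all protein-coding genes of the WBcel235 annotation whose symbol starts with rps-. This gave 31 genes, rps-0 to rps-30, of 19973 protein-coding genes on the nuclear chromosomes. Chromatin immunoprecipitation with sequencing (ChIP-seq) had been done on 2 biological replicates of 1 group, with no second condition. All animals were of strain OP124, with the genotype unc-119(ed3) III; wgIs124, and were pooled males and females of unstated age. The labels describe an insertion for aha-1 and name eGFP-aha-1 as the ChIP target. They list aha-1 under antibody, and they do not give the promoter of the insertion. Whole larvae were used, so the tissue in which a site was bound is not known.

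Each replicate had a list of 30000 peaks, and so did the list called on both replicates together, whose entries are called candidates here. The authors' irreproducible discovery rate (IDR) list held the 530 candidates with the highest signal, a value of ChIP over control that ranks peaks within a list. These lists of fixed length include background. Read depth is unknown because the lists hold no read counts. No other factor, untagged strain or control track was analysed, so no peak described here was compared with those of another factor. For each gene, the strongest candidate with its summit from 1000 bp upstream to 500 bp downstream of an annotated start was taken as its best peak. With 1 group and no other condition, the values below are descriptions and no test was made.

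The small subunit binds the messenger RNA and holds the decoding centre, where codons are read. It has a head, which moves during translation, and a body with a platform. Its proteins are needed in equal numbers, and their genes are among the most strongly transcribed in growing cells. AHA-1 is the worm orthologue of mammalian ARNT, a bHLH-PAS protein that binds DNA as a dimer with partners such as HIF-1 and AHR-1. In mammals, HIF dimers recognise the core ACGTG or GCGTG, and the AHR dimer recognises a site with GCGTG. In worms many transcripts are trans-spliced, so an annotated start can lie downstream of the place where transcription begins.

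The sequence of 101 bp around the summit is shown for 10 members, so that the presence or absence of these cores can be seen beside the strength of the peak. They are those with the strongest best peaks among members whose sequence may be shown and whose window overlaps no exon, strongest first. Each runs 5′ to 3′ on the strand of the gene, from the ce11 genome, with the summit at its middle base. Capitals mark GCGTG, or CACGC where it lies on the other strand.
rps-12 (chrIII:5679075-5679175, plus strand): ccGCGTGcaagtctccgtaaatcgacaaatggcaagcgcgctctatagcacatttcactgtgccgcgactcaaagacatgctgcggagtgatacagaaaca
rps-1 (chrIII:4475606-4475706, plus strand): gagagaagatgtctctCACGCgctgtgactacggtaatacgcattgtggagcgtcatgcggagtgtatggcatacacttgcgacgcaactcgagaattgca
rps-28 (chrIV:1659221-1659321, plus strand): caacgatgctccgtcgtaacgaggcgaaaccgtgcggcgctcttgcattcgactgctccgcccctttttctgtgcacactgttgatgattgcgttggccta
rps-13 (chrIII:6375138-6375238, minus strand): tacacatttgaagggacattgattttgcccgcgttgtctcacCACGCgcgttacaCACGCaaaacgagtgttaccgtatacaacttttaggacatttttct
rps-23 (chrIV:12391287-12391387, minus strand): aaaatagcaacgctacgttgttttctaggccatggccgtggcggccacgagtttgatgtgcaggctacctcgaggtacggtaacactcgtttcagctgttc
rps-0 (chrIII:4754317-4754417, minus strand): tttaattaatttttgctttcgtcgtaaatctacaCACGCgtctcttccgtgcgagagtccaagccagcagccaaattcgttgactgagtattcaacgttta
rps-4 (chrIV:7084918-7085018, minus strand): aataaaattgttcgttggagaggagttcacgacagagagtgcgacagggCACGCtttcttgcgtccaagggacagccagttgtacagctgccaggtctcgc
rps-14 (chrIII:7179801-7179901, minus strand): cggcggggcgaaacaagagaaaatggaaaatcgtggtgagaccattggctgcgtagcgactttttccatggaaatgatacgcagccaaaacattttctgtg
rps-24 (chrIV:385336-385436, plus strand): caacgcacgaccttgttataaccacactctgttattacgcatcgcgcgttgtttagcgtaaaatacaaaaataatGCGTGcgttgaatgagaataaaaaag
rps-27 (chrV:104654-104754, minus strand): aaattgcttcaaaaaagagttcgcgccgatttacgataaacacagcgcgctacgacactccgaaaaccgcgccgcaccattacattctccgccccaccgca
No window shown holds ACGTG on either strand. The core GCGTG was present in 6 of them, and the strong peaks of rps-28 and rps-23 had neither core.

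AHA-1 peaks of the IDR list stood at the promoters of 13 of the 31 genes, or 41.9%. The background was 2.09% of all protein-coding genes, or 418 of 19973. A candidate of any strength was found at 29 of the 31 genes, against 46.8% of all protein-coding genes. Among genes with a candidate, 13 of 29 rps- genes (44.8%) had an IDR peak, against 4.47% of all. The signal of the best peak had a median of 22.7 over the 29 genes and ran from 5.16 to 79.1, whereas the median over all 9352 genes with a candidate was 8.03. The corresponding median ranks were 666 and 11091.5. The best peaks of the members were spread over nearly the whole list, from rank 25 to rank 27324.

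The 4 strongest peaks were those of rps-12, rps-1, rps-19 and rps-28. At rps-12 (WBGene00004481), which encodes eS12 of the head, the peak III:5679077-5679183 had signal 79.1 and rank 25, with rank 40 in replicate 1 and 31 in replicate 2. At rps-1 (WBGene00004470), which encodes eS1 of the platform, the peak III:4475498-4475813 had signal 73.7 and rank 35, with ranks 111 and 24. Both genes stood high in each replicate, although rps-1 was several times better placed in replicate 2. At rps-19 (WBGene00004488), the head protein eS19, whose human gene is mutated in Diamond-Blackfan anaemia, the peak I:9625917-9626232 had signal 61.4 and rank 55, with ranks 66 and 69. At rps-28 (WBGene00004497), the head protein eS28, the peak IV:1659113-1659428 had signal 54.5 and rank 69, with ranks 77 and 126. Both genes had similar places in the replicates.

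A further 4 genes for proteins of the head had an IDR peak. The peak of rps-20 (uS10, I:14469179-14469494) had signal 49.9 and rank 86, with rank 356 in replicate 1 and 61 in replicate 2. That of rps-15 (uS19, next to the site where transfer RNA enters, I:8816429-8816744) had signal 47.7 and rank 100, with ranks 144 and 114. Of these, rps-15 held its place in each replicate and rps-20 was better placed in replicate 2. The zinc-binding protein uS14 is encoded by rps-29, whose peak III:793570-793885 had signal 27.5 and rank 434, with ranks 298 and 2122. The peak of rps-10 (eS10, I:4584720-4585035) had signal 25.99 and rank 495, with ranks 363 and 1613. Both weaker peaks stood among the strongest 530 of replicate 1 but not of replicate 2. In all, 7 of the 13 head genes had an IDR peak.

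Of the 18 genes for proteins of the body, platform and foot, 6 had an IDR peak. After rps-1, the highest was rps-13 (uS15, III:6375030-6375345), with signal 43.2 and rank 129, and with rank 127 in replicate 1 and 173 in replicate 2. The peak of rps-23 (uS12, part of the decoding centre, IV:12391179-12391494) had signal 34.6 and rank 224, with ranks 781 and 259. So rps-13 was steady and rps-23 was lower in replicate 1. The genes rps-0 (uS2, III:4754209-4754524) and rps-4 (eS4, IV:7084810-7085125) had nearly the same signal of 30.3, at ranks 324 and 325. The replicate ranks were 432 and 710 for rps-0, and 753 and 359 for rps-4, so their order differed between replicates. The peak of rps-26 (eS26, at the exit of the messenger RNA, I:14759245-14759560) had signal 27.5 and rank 430, with ranks 1098 and 329. Its summit lay within 200 bp of the snoRNA gene F39B2.14, and the part of that gene in the result was not tested.

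**Figure D1:**
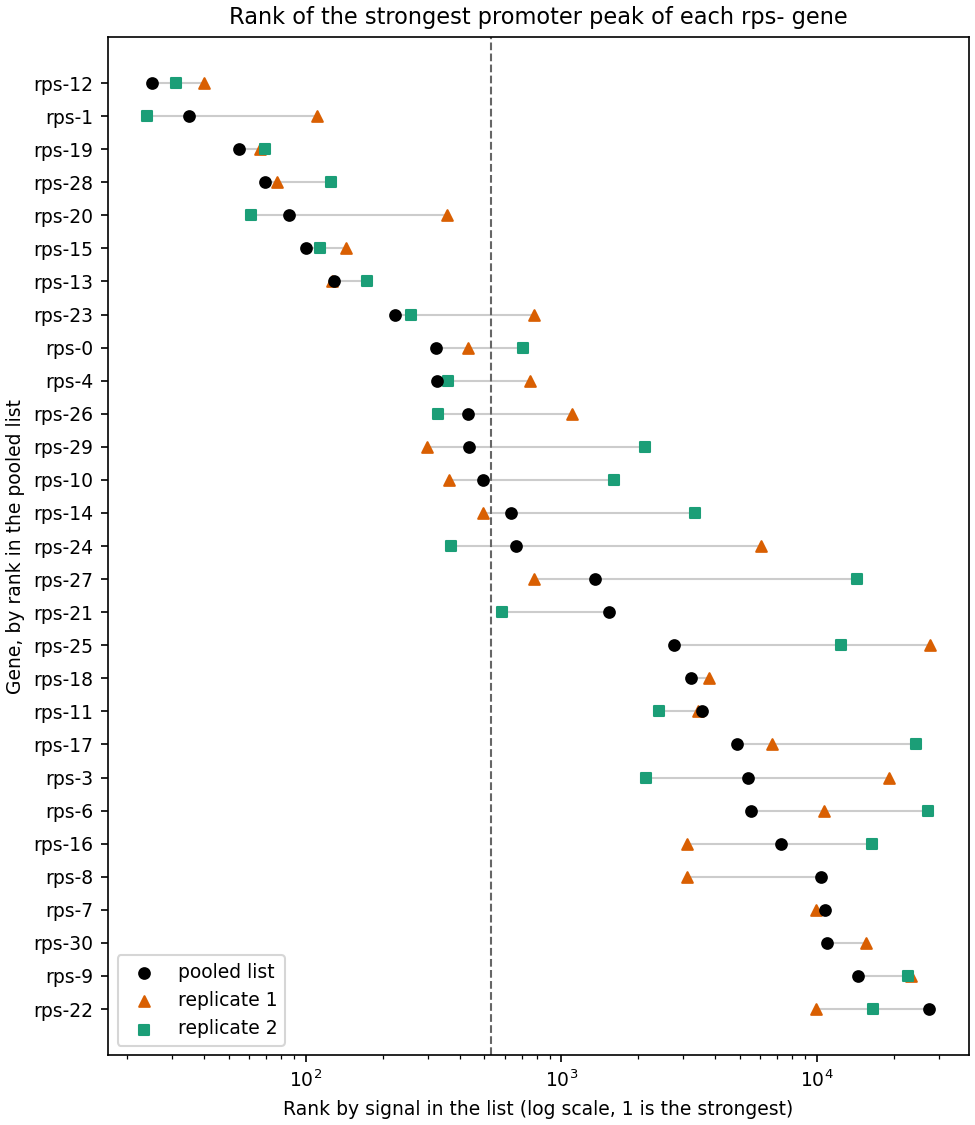
Rank of the best peak of each of the 29 rps- genes with a candidate, on a log axis where 1 is the strongest. Black circles are the pooled list, triangles replicate 1 and squares replicate 2, a missing symbol means no overlapping peak, and the dashed line stands at rank 530. The 7 genes at the top lie left of the line in all 3 lists.

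Outside the IDR list, rps-14 and rps-24 came closest. The weakest member inside it, rps-10, had signal 25.99, and rps-14 (uS11 of the platform), the next one outside, had 23.2 at rank 636. Its ranks were 494 in replicate 1 and 3328 in replicate 2. At rps-24 (eS24) the signal was 22.7 and the rank 666, with ranks 6053 and 370. Each of these genes stood among the strongest 530 peaks of one replicate only. The next were rps-27 (eS27, signal 16.9, rank 1350), rps-21 (eS21, 16.2, rank 1541) and rps-25 (eS25, 13.1, rank 2772).

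The remaining 11 members with a candidate had weak peaks. Signals of 10.4 to 12.4 were held by rps-18 (rank 3227), rps-11 (3550), rps-17 (4867), rps-3 (5368) and rps-6 (5500). The proteins of rps-3 (uS3, at the entry of the messenger RNA) and rps-6 (eS6, a target of S6 kinase) are among the best known of the subunit, and their peaks did not stand out. Signals under 10 were held by rps-16 (rank 7220), rps-8 (10386), rps-7 (10791), rps-30 (10951), rps-9 (14538) and rps-22 (27324). The peaks of the last 5 were near or below the median signal of 8.03 over all genes with a candidate.

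The genes rps-2 (uS5) and rps-5 (uS7) had no candidate in the window. The nearest candidate summit lay 1203 bp downstream of the start of rps-2, at rank 10687, and at -1177 bp from that of rps-5, at rank 19817. In replicate 2 alone, rps-5 had a summit in the window at 150 bp, of rank 19188. The nearest IDR summits were over 100 kb away, at -102144 bp for rps-2 and -114337 bp for rps-5.

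The members with an IDR peak were mostly ranked high in both replicates. The IDR list holds the 530 strongest candidates of these same replicates pooled, so high replicate ranks are partly built in and are not separate support. A best peak was ranked 1000 or better in both replicates at 10 of the 29 genes, against 3.23% of all genes with a candidate, and all 10 were among the 13 with an IDR peak. Of these, 7 stood among the strongest 530 of both replicates, as did the best peaks of 189 of all 9352 genes with a candidate. Taking the best summit of each replicate without regard to the pooled list, 11 rps- genes had one among the strongest 530 of replicate 1, where the background was 2.00% of protein-coding genes. In replicate 2 the number was also 11, with a background of 2.08%. Each replicate shared 10 of its 11 genes with the 13 of the IDR list. The list of replicate 1 lacked rps-4, rps-23 and rps-26 and held rps-14, and that of replicate 2 lacked rps-0, rps-10 and rps-29 and held rps-24.

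The largest gaps between replicates were at members of intermediate or low signal. At rps-27 the ranks were 783 in replicate 1 and 14389 in replicate 2, and at rps-24 they were 6053 and 370. At rps-3 they were 19208 and 2145, at rps-29 298 and 2122, and at rps-14 494 and 3328. The direction was not shared, since replicate 1 placed 12 members higher and replicate 2 the other 12 of the 24 found in both. The peak of rps-21 had no overlapping peak in replicate 1, and those of rps-7, rps-8, rps-18 and rps-30 had none in replicate 2. Other weak members were placed low in at least 1 replicate. At rps-25 the ranks were 27602 and 12451, at rps-17 6699 and 24503, and at rps-6 10689 and 27275. At rps-16 they were 3113 and 16398, at rps-9 23271 and 22726, and at rps-22 9905 and 16612. The peak of rps-11 was ranked 3420 and 2414, so it was placed alike in both replicates, as was the much weaker one of rps-9. Across the 24 genes found in both, Spearman's rho of the ranks was 0.81. These points share their libraries and were placed through the pooled peak, so the value only describes them.

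The best peaks mostly lay upstream of the annotated starts, as did those of other genes with an IDR peak. The summit was upstream at 27 of 29 genes (93.1%), with a median of -284 bp. It was upstream at 72.3% of all genes with a candidate, with a median of -210 bp. For the other 405 genes with an IDR peak the values were 91.4% and -267 bp. Of the 29 rps- summits, 25 (86.2%) lay between 600 and 100 bp upstream. In that band were 42.6% of the best peaks of all genes with a candidate and 247 of those of the other 405 genes with an IDR peak. The 13 IDR peaks ran from -572 bp at rps-29 to -173 bp at rps-12. Only rps-8 (173 bp) and rps-18 (376 bp) had their best summit downstream, each in an intron of its own gene, and both were weak. At 25 genes the summit lay between protein-coding genes. Those of rps-26 and rps-29 lay in UTR exons of the neighbours tmem-107 and snt-2. Apart from rps-12, with 107 bp, every best peak had the largest width in the list, 316 bp, so width carries no information on the extent of a site.

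**Figure D2:**
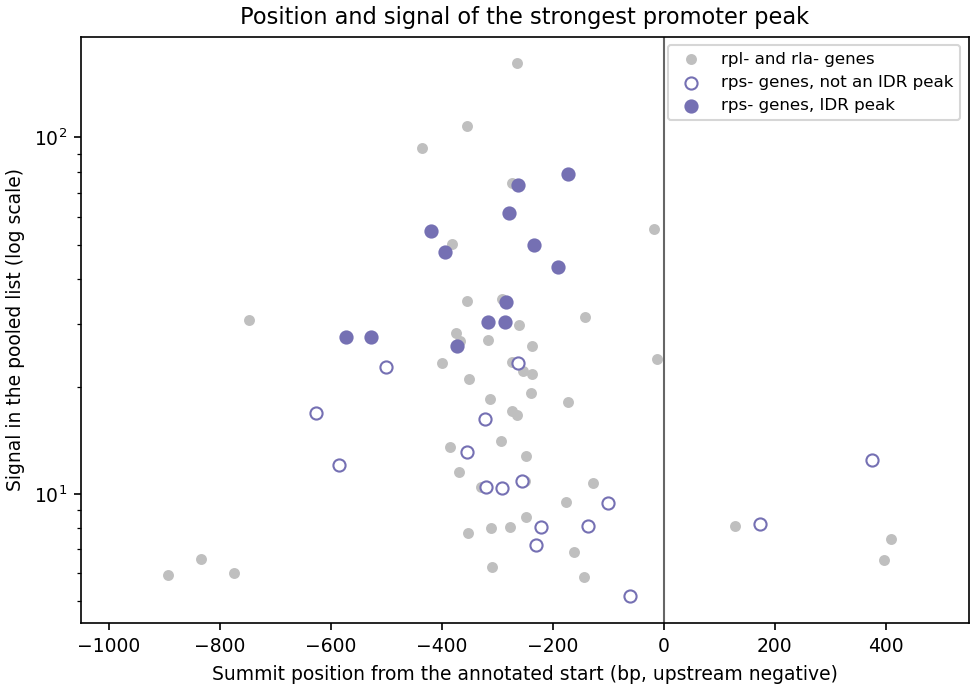
Summit position of the best peak from the annotated start, in bp with upstream negative, against its signal in the pooled list on a log axis. Filled points are rps- genes with an IDR peak, open points the other rps- genes and grey points the rpl- and rla- genes. All 13 filled points lie between -572 and -173 bp.

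Most strong rps- peaks were shared with a neighbouring gene. The summit lay in the window of another protein-coding gene too at 20 of the 29 genes, and at 12 of the 13 with an IDR peak. The exception was rps-4. The share of all genes whose summit lies in the window of another gene is not given, so these counts have no like background. By a different measure, the 418 protein-coding genes with an IDR peak had 309 different best peaks among them. The 13 rps- genes had 13 different ones. Only rps-1, rps-4 and rps-28 of the 13 were nearer to the rps- start than to any other, and rps-13 was at the same distance from nfx-1, 191 bp from each start. The summit of rps-0 lay at -316 bp from its own start but at -57 bp from that of rbg-3. That of rps-19 lay at -279 bp and at -166 bp from hsr-9, and that of rps-20 at -234 bp and at -163 bp from ekl-4. At rps-29 the summit lay 5 bp downstream of the start of the synaptotagmin gene snt-2, and at rps-26 it lay 70 bp downstream of that of tmem-107. The peak of rps-1 counted also for ifet-1, a partner of the cap-binding protein eIF4E, at -506 bp, and that of rps-12 for ska-3, at -120 bp. When a summit was given only to the nearest start, 4 of the 31 rps- genes kept an IDR peak, where 13 had one before. Over all protein-coding genes, 310 (1.55%) kept one, where 418 had one before. A peak does not show which of its genes, if any, it acts on.

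Many rps- genes start close to a gene that runs the other way. The upstream neighbour ran the other way and lay within 1000 bp at 19 of the 31 rps- genes (61.3%), against 21.3% of all protein-coding genes. With such a neighbour, 11 of 19 (57.9%) had an IDR peak, and without one 2 of 12 (16.7%), rps-4 and rps-28. Over all protein-coding genes the numbers were 182 of 4250 (4.28%) and 236 of 15723. For the rpl- and rla- genes, which encode the large subunit, they were 9 of 31 and 6 of 19. At 3 members the neighbour was itself a gene of the large subunit. The peak of rps-10 counted for rpl-24.1, that of rps-14 for rpl-36 and that of rps-30 for rpl-39, and the first of these was an IDR peak.

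The core ACGTG was absent within 50 bp of the best summit at all 29 genes, of which 13 had an IDR peak and 16 did not. It was present at 28.9% of all IDR peaks (153 of 530), and at 29.1% of the 296 IDR best peaks of genes other than rps-, as well as at 9.84% of all candidates. The longer form CACGTG, which contains it, was therefore absent too, as were the 2 others searched, TACGTG and its variant with G as the first base. Within 100 bp, 1 of the 29 genes had ACGTG. The share of IDR peaks was 40.0%, an unlike set because most of the 29 are not IDR peaks, and no share over all candidates is given at that distance. At the best summits of replicate 1 alone 2 of 29 genes had it, and at those of replicate 2 alone 0 of 28. No share over the peaks of each replicate list is given, so these counts have no background beside them. The core GCGTG was found at 10 of 29 genes (34.5%), and at 6 of the 13 with an IDR peak (46.2%). It was found at 27.9% of all IDR peaks, at 29.7% of the IDR peaks of other genes and at 7.58% of all candidates. Either ACGTG or GCGTG was present at 6 of the 13 rps- IDR peaks (46.2%). The share was 49.4% for all IDR peaks, 51.7% for the IDR peaks of other genes and 16.4% for all candidates. For holding either core, the rps- IDR peaks were thus near other IDR peaks. Both strands were searched.

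The GCGTG cores at strong peaks were those of rps-12, rps-1, rps-19, rps-13, rps-0 and rps-4. At rps-4 the centre of the core was 1 bp from the summit, and rps-13 had cores at -6 and 7 bp. At rps-19 the core was at -8 bp, at rps-0 at -14 bp and at rps-1 at -32 bp. At rps-12, the strongest of all, it was at -46 bp, the start of the sequence printed above. The IDR peaks of rps-28, rps-20, rps-15, rps-23, rps-26, rps-29 and rps-10 had neither core within 50 bp. Among the weaker members, rps-24, rps-17, rps-6 and rps-30 had GCGTG. The form with any NN before it, NNGCGTG, gave the same 10 genes out of 29. No match means only that these letters are not in the window.

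**Figure D3:**
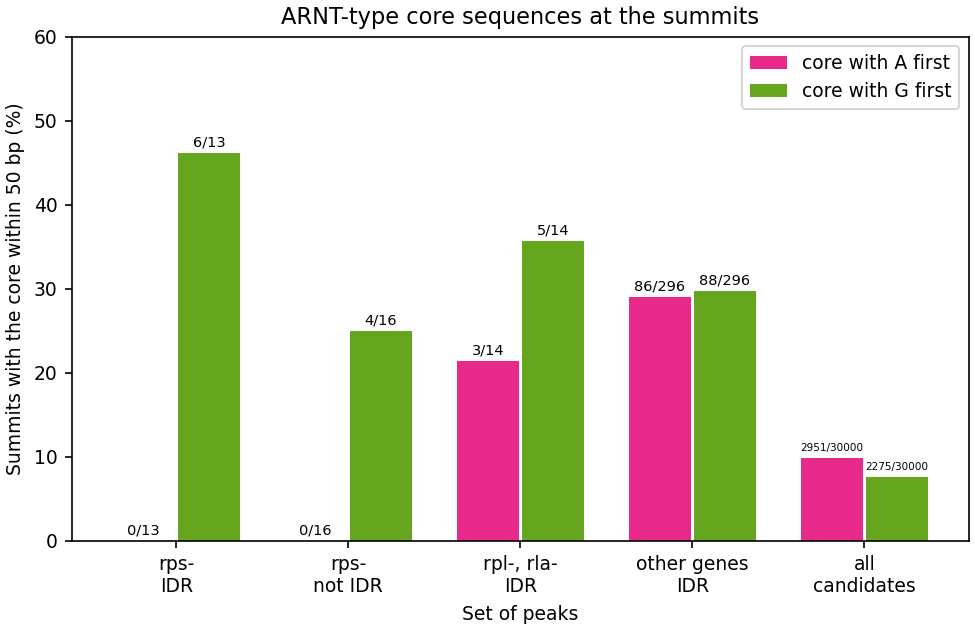
Share of summits with ACGTG (core with A first) or GCGTG (core with G first) within 50 bp on either strand, in percent, with the number of summits above each bar. No rps- summit holds ACGTG, against 29.1% of the IDR peaks of other genes and 9.84% of all candidates. GCGTG is present at 46.2% of the rps- IDR peaks, 29.7% of the IDR peaks of other genes and 7.58% of all candidates.

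Other sequences searched were present at some members. The general E-box CANNTG, which includes CACGTG, stood at 8 of the 13 rps- IDR peaks (61.5%), against 44.0% of all IDR peaks, and at 13 of all 29 members (44.8%), against 33.2% of candidates. The GATA-type GATAA stood at 1 of the 13 rps- IDR peaks (7.69%), against 12.5% of all IDR peaks, and at 6 of all 29 members (20.7%), against 21.3% of candidates. The sequence TGACGT was found at rps-3 alone, outside the IDR list, and at 5.66% of all IDR peaks and 3.28% of candidates. The median GC content of the 101 bp was 51.5% at the rps- IDR peaks, 45.0% at the other members, 50.5% over all IDR peaks and 36.6% over all candidates.

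Several promoters shared longer strings that are rare elsewhere. They were found after the sequences were seen, by counting all strings of 10 bases in the windows, so they are described without a test. AGTATTCAAC stood at rps-0, rps-3, rps-20, rps-22 and rps-30, on the strand of the gene at each. Its centre lay at -315 bp from the start of rps-3 and -95 bp from that of rps-22, the extremes of the 5. It can be read near the right end of the rps-0 sequence above. It was found at 15 of the 30000 candidates, which include these 5. Within 1000 bp upstream of the start it occurred at 5 of 31 rps- genes, at 5 of 50 rpl- and rla- genes and at 54 of all 19973 protein-coding genes (0.27%). ACGGTAACAC, or its complement GTGTTACCGT, stood at rps-10, rps-13, rps-17 and rps-23. It occurred within 1000 bp upstream at 5 rps- genes, 5 rpl- and rla- genes and 52 protein-coding genes in all (0.26%). ATTGGCTGCG, or CGCAGCCAAT, stood at rps-3, rps-14, rps-19 and rps-21, and within 1000 bp upstream at 4 rps- genes, 2 rpl- and rla- genes and 23 protein-coding genes in all. The rps- and rpl- counts overlap for each string, because some pairs share both a peak and the string. These are rps-30 with rpl-39, rps-10 with rpl-24.1 and rps-14 with rpl-36, in the order of the strings. Strong and weak peaks were found with each string, from rank 86 at rps-20 to rank 27324 at rps-22 for AGTATTCAAC.

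The genes of the large subunit often carried a peak as well. Of 50 rpl- and rla- genes, 47 had a candidate and 15 (30.0%) an IDR peak. The median signal of their best peaks was 18.1, against 22.7 for the rps- genes, and the summits had a median position of -274 bp. Their strongest peaks were higher than any of the rps- genes, with signal 161 at rpl-3 (rank 5), 108 at rpl-15 (rank 14) and 93.2 at rpl-35 (rank 18). The core ACGTG stood at 3 of the 14 IDR best peaks of rpl- genes not shared with an rps- gene, and GCGTG at 5. Genes of the mitochondrial ribosome were near the background of 2.09%. Of 70 mrps- and mrpl- genes, 41 had a candidate and 2 (2.86%) an IDR peak, mrps-21 at rank 59 and mrpl-55 at rank 259.

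**Figure D4:**
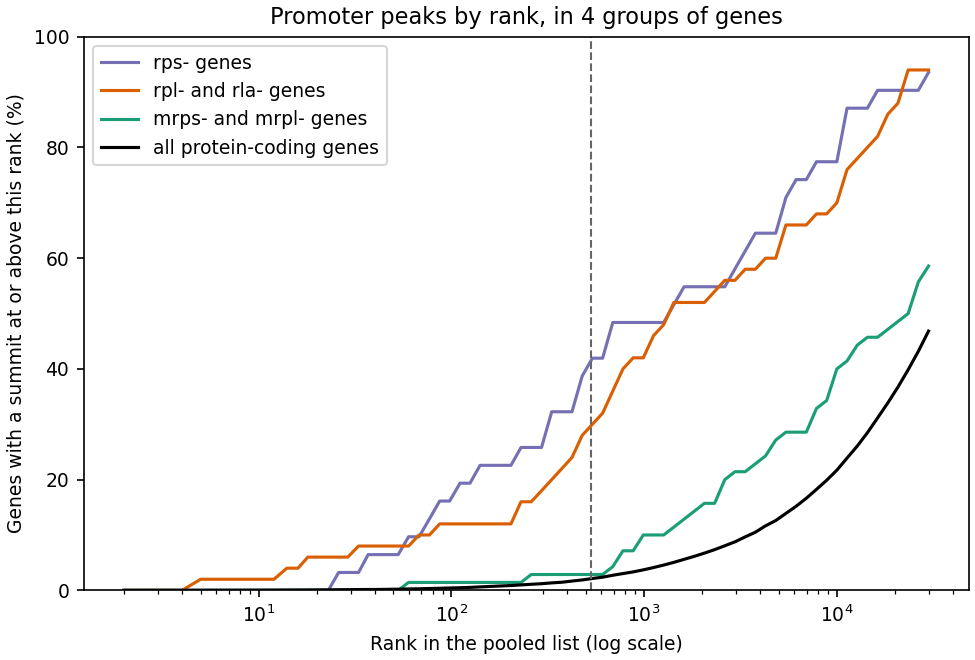
Share of genes with a summit in the promoter window at or above each rank of the pooled list, on a log axis, for 4 groups of genes. The dashed line stands at rank 530, where the curves reach 41.9% for rps-, 30.0% for rpl- and rla-, 2.86% for mrps- and mrpl- and 2.09% for all protein-coding genes.

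Another 13 genes were listed with the members, namely ubl-1, rack-1 and 11 genes of ribosome assembly or the nucleolus, some of which act on the large subunit. Of these, 10 had a candidate and 1 an IDR peak, against 46.8% and 2.09% of all protein-coding genes, and a single gene says nothing of the list. That gene was nifk-1, a nucleolar protein gene, with signal 30.1 and rank 330, and it stood at rank 9055 in replicate 1 and 177 in replicate 2. The last protein of the subunit, eS31, is made from ubl-1 as a fusion with a ubiquitin-like protein, and ubl-1 had signal 20.3 at rank 885. The gene rack-1, whose protein sits on the head, had signal 5.81 at rank 22426. The nucleolar genes nol-58, fib-1 and ncl-1 had ranks 706, 2481 and 2555, and pro-1 had 2304. The ranks of tsr-1, pro-3 and lpd-7 were 8295, 11245 and 22193, and rbm-28, pro-2 and rrp-1 had no candidate.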

How the data were processed

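ChIP-seq peaks of 2 replicates of eGFP-tagged AHA-1 were used as deposited by the authors on assembly ce11. Per the text deposited with the samples, peaks were called on each replicate and on both together, each with a control. The IDR list was thresholded with the optimal rule. It is listed there as derived from the pooled and replicate 2 lists. The sources used here do not name the aligner, peak caller or IDR threshold. The signal, deposited by the authors for each peak, is the caller's value of ChIP over control, and ranks by it were compared only within a list. The −log10 q-value deposited by the authors reached its maximum at 15 of the 29 best peaks and was not used for ranking. The ce10 lists were not used.

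Peaks were set on WBcel235, the same assembly, with Ensembl release 115 and the RefSeq genome, using Python 3.11.15, pandas 2.3.3, numpy 2.4.6, scipy 1.17.1 and matplotlib 3.10.9. Coordinates start at 1. Replicate ranks are those of the strongest peak overlapping the pooled peak by at least 1 bp. Window and motif searches were tested on simulated data. The members and lists were chosen with earlier results of these data known. Every rps- gene is named by rule, and the strings of 10 bases were chosen after they were seen. No significance test was planned or made.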

Additional observations from a re-analysis of the deposited data

How the results depend on the processing

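The number of rps- genes with an IDR peak, 13 as reported, changed with the way peaks are given to genes. It was 4 when a summit counted only for the nearest start, 8 with IDR peaks of signal above the median of their list (32.2) and 1 (rps-4) when summits in the window of another gene were left out, a setting added after seeing the data. The share of all protein-coding genes, 2.09% as reported, was 1.55% in the first of these settings and 1.12% in the second. No such share is given for the third, so its count of 1 has no background beside it. With the nearest start only, 19 rps- genes had a candidate, as did 8341 of all 19973 protein-coding genes (29 and 9352 as reported). The median rank, 666 as reported, was then 3550. It was 1541 with a window of 500 bp on each side and 1008 with 2000 bp upstream. With 1 replicate left out, the strongest 530 of the other list took the place of the IDR peaks. The number of rps- genes with a peak was 11 in both cases, against 2.00% to 2.08% of all protein-coding genes. The rps- genes with a candidate then numbered 28 without replicate 1 and 29 without replicate 2, against 9310 and 9159 of all protein-coding genes. Their median rank ran from 1098 to 1867.5, and their median summit position from -291.5 to -262 bp. Those with ACGTG or GCGTG numbered 12 to 13 (10 as reported), and no share over the peaks of the same replicate is given. With 500 bp on each side, 11 rps- genes had an IDR peak, against 1.60% of all protein-coding genes. With 2000 bp upstream the number was 13, against 2.84%. A longer list of the strongest candidates gave 15, against 3.93%, so the background rose as well. Without summits near small RNA genes the number was 12, and no share of all protein-coding genes is given for that setting. Read depth, unknown here, limits how far weak peaks can be told from background. No paired analysis was possible because there was 1 group.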
